A study of Mus musculus with 12 samples.

Results

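The 10 genes described here encode the subunits of AMP-activated protein kinase (AMPK) and a pair of transcriptional coactivators with their nuclear receptor partner. They are the catalytic subunits Prkaa1 and Prkaa2, the scaffold subunits Prkab1 and Prkab2, the nucleotide-sensing subunits Prkag1, Prkag2 and Prkag3, the PGC-1 coactivators Ppargc1a and Ppargc1b, and the estrogen-related receptor Esrra. They were chosen by name and not by any measured value, and each was represented by 1 of the 23185 probe sets that carried a single gene symbol. All 10 were measured on all 12 arrays, and no filter on low values was applied.

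AMPK is a heterotrimer of a catalytic, a scaffold and a regulatory subunit that is switched on when AMP and ADP accumulate in the cell and when the upstream kinase LKB1 phosphorylates its catalytic subunit. In skeletal muscle it promotes glucose uptake and fatty acid oxidation, and it restrains protein synthesis. PGC-1α, the product of Ppargc1a, is a coactivator that AMPK can phosphorylate. It is known in muscle for raising the expression of mitochondrial and oxidative genes through nuclear receptors such as ERRα, the product of Esrra.

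The RNA came from gastrocnemius, the large calf muscle, of 12-week-old mice of a BKS strain, the same in all groups. This strain carries the db mutation of the leptin receptor (Leprdb), which causes obesity and diabetes in homozygous animals. Every animal had been given adenovirus coding for short hairpin RNA (shRNA), which directs degradation of a matching transcript, and was killed 1 week later. The 4 groups were control shRNA (animals 18, 19 and 20), LCN13 shRNA (animals 21, 22 and 23), TSC22D4 shRNA (animals 25, 26 and 27) and TSC22D4+LCN13 shRNA (animals 29, 30 and 32). LCN13 is a secreted lipocalin and TSC22D4 a transcriptional regulator. The total virus dose was equal in the 4 groups. A group with a single target got control virus for the remaining part of its dose, and the group with both targets got none. In any comparison with control, gain of target virus and loss of control virus therefore cannot be told apart. No group without virus, and no lean animals, were analysed here. The submitters picked 3 of 7 treated animals per group as representative, which can make the arrays look more alike than all treated animals would. Which tissue the virus reached and which promoter drove the hairpins were not stated.

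The values are log2 levels from 1-colour Affymetrix arrays, so a difference of 1 is a doubling. Precision is limited by how few arrays there are. Levels of different genes come from different probes and are not set against each other. In whole muscle, fewer cells of a type and less RNA per cell cannot be told apart. The 12 skeletal muscle markers were at stable levels, with summed log2 levels from 162.50 to 163.49 over the 12 arrays. Of 4 brown adipocyte markers, Ucp1 (5.01 to 5.10) and Elovl3 (at most 5.07) were low in all arrays, Cidea ran from 5.24 to 5.44 and Otop1 from 5.60 to 5.93, with an array median of 5.452. The target Tsc22d4 measured no less in TSC22D4 shRNA arrays (6.82 ± 0.07, SD, n = 3) than in control arrays (6.59 ± 0.19, SD, n = 3). Obp2a, as Lcn13 is now called, ranged from 4.90 to 4.97 and so lay close to the bottom of the scale. The groups are therefore called by their labels.

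Other markers differed between arrays. A tendon score, the mean deviation of 6 tendon markers from their 12-array means in log2 units, ran from -1.06 to 0.11 in control arrays. It ran from 0.14 to 0.44 in LCN13 arrays, from -0.37 to 0.31 in TSC22D4 arrays and from 0.05 to 0.48 in TSC22D4+LCN13 arrays. None of the 6 tendon markers passed the test in any comparison. The macrophage score, over 4 markers, ran from -0.34 to -0.15 in control arrays and from 0.16 to 0.82 in TSC22D4+LCN13 arrays, and the red cell score, over 3 markers, from -0.69 to -0.10 and from 0.34 to 1.42. In this comparison 2 of 4 macrophage and 2 of 3 red cell markers passed the test, all higher. In TSC22D4+LCN13 against LCN13, 1 of 4 macrophage and 3 of 3 red cell markers passed, all higher. The hepatocyte score, over 7 markers, ran from -0.44 to 0.22 in control arrays and from -0.04 to 1.01 in LCN13 arrays, and none of these markers passed. The array of animal 30 had the lowest mean correlation with the other arrays (0.9933, against up to 0.9964) and the highest white adipocyte (0.84) and macrophage (0.82) scores. Where these scores move with a result below, their part in it was not tested beyond the fits that hold the tendon or slow fibre score as a covariate.

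Promoter sequence from RefSeq (GRCm38.p6) is shown for the member with the largest differences from control, Ppargc1a, and for the member that passed the test, Prkab1. Each window runs from 250 bases before the annotated start to 50 bases after it, on the strand of the gene, and a motif was searched on both strands. In the Ppargc1a window, chr5:51567676-51567975 on the minus strand, the capitals mark TGACG (here on the opposite strand), the short form of the cAMP response element through which CREB acts. In the Prkab1 window, chr5:116024379-116024678 on the minus strand, they mark a site for the mitochondrial gene regulator GABP (CCGGAAG).
Ppargc1a: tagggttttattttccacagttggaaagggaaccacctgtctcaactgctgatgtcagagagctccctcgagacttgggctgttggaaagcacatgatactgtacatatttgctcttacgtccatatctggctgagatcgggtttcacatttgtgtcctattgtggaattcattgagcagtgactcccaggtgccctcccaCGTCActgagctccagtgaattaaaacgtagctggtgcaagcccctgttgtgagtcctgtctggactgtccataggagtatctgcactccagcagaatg
Prkab1: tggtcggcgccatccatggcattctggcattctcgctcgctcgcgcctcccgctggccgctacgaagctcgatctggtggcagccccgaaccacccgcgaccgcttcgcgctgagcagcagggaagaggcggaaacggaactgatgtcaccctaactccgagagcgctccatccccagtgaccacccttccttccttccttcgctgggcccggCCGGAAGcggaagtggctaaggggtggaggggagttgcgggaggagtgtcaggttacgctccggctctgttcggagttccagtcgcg

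This short form of the cAMP response element begins 49 bases before the start used for Ppargc1a, and 20.8% of all 32851 windows of this length hold it. That start lies inside the annotated span of the gene (bases 51454249 to 52115853). It was the only Ppargc1a window searched, so the upstream end of the span was not covered. It also occurred in the windows of Prkaa2 and Prkag1. The GABP site begins 37 bases before the Prkab1 start, was also found in the Prkag1 window, and is held by 8.86% of all windows. Of 11 windows of 9 members, none held the full cAMP response element (TGACGTCA, 1.79% of all windows), the ERR element (TCAAGGTCA, 0.423%) or a MEF2 site (TATTTATA, 1.7%). The nuclear receptor core AGGTCA, which is part of the ERR element and is held by 16.3% of windows, was in 1 of the 3 windows of Prkag2. These matches describe letters in the reference and are not evidence of binding.

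Prkaa1 and Prkaa2 encode the alternative catalytic subunits α1 and α2, of which α2 is the main form in skeletal muscle. Neither passed the test in any comparison. Prkaa1 (chromosome 15, bases 5143861 to 5181899) measured 8.91, 8.97 and 9.03 in the control arrays, 9.42, 9.14 and 8.88 in the LCN13 arrays, 9.10, 9.00 and 9.17 in the TSC22D4 arrays, and 9.05, 9.24 and 9.02 in the TSC22D4+LCN13 arrays. The LCN13 group held both the highest and the lowest of the 12 values, so its range covered that of every other group. The order of group means from low to high was control, TSC22D4, TSC22D4+LCN13 and LCN13, and neighbours in it overlapped. The difference of LCN13 from control was 0.18 (SE 0.117, adjusted p = 0.619).

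Prkaa2 (chromosome 4, bases 105029649 to 105109898) measured 12.32, 12.25 and 12.26 in control arrays, 12.23, 12.26 and 12.15 in LCN13 arrays, 12.32, 12.26 and 12.25 in TSC22D4 arrays, and 12.22, 12.03 and 12.23 in TSC22D4+LCN13 arrays. The TSC22D4+LCN13 values lay below all control and all TSC22D4 values, with animal 30 the lowest of the 12. The difference of TSC22D4+LCN13 from control was -0.12 (95% interval -0.24 to 0.00, adjusted p = 0.263), and that from TSC22D4 was -0.11 (adjusted p = 0.504). For TSC22D4 against control it was -0.00 (95% interval -0.12 to 0.12, adjusted p = 0.995). In the order TSC22D4+LCN13, LCN13, TSC22D4 and control, from low to high, neighbouring groups overlapped.

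Prkab1 and Prkab2 encode the scaffold subunits β1 and β2, which hold the complex together and bind glycogen, with β2 the main form in skeletal muscle. Prkab1 (chromosome 5, bases 116013586 to 116024503) was the only member to pass the test, in 1 of 7 differences. It measured 7.67, 7.67 and 7.75 in control arrays, 7.73, 7.63 and 7.63 in LCN13 arrays, 7.80, 7.76 and 7.72 in TSC22D4 arrays, and 7.90, 7.90 and 7.77 in TSC22D4+LCN13 arrays. The TSC22D4+LCN13 values lay above all LCN13 and all control values and overlapped with the TSC22D4 values. Prkab1 was 1.14-fold higher in TSC22D4+LCN13 than in LCN13 arrays, a log2 difference of 0.19 (SE 0.044, 95% interval 0.09 to 0.29, adjusted p = 0.0438). The red cell score did not overlap between these groups either (-0.66 to -0.52 in LCN13 and 0.34 to 1.42 in TSC22D4+LCN13 arrays), nor did the macrophage score (-0.288 to 0.155 and, by a narrow gap, 0.157 to 0.822), and their part in this result was not tested.

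The call of Prkab1 was close to the threshold of 0.05. It was lost in 16 of 22 alternative fits. The call held with all probe sets, means per gene, quantile normalization, median centring and a tendon covariate, and without animal 32. Means per gene, quantile normalization and median centring change almost nothing in these data, so the call was bound to hold with them. Over the 22 fits the adjusted p ran from 0.034 to 0.178. Among them, leaving out any array other than that of animal 32 gave an adjusted p from 0.0517 to 0.113, and without animal 32 it was 0.034. Against control the difference was 0.16 (SE 0.044, adjusted p = 0.0736), which passed without animal 32 (adjusted p = 0.0421), and against TSC22D4 it was 0.10 (adjusted p = 0.47). The order from low to high was LCN13, control, TSC22D4 and TSC22D4+LCN13, and no neighbours in it differed by the test.

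Prkab2 (chromosome 3, bases 97658211 to 97673812) had its lowest levels in the LCN13 group. It measured 11.55, 11.24 and 11.40 in control arrays, 11.12, 11.16 and 11.07 in LCN13 arrays, 11.59, 11.51 and 11.46 in TSC22D4 arrays, and 11.41, 11.21 and 11.50 in TSC22D4+LCN13 arrays. All LCN13 values lay below all values of the other 3 groups, which overlapped with each other. The LCN13 group differed by -0.28 from control (SE 0.087, adjusted p = 0.202). TSC22D4 was above LCN13 by 0.40, which is 1.32-fold (SE 0.087, 95% interval 0.20 to 0.59, adjusted p = 0.0891), and TSC22D4+LCN13 was above it by 0.26 (adjusted p = 0.131, and 0.0468 without animal 30). None of these passed. The difference between TSC22D4 and LCN13 passed with array weights (adjusted p = 0.0499), with the compared arrays alone (0.048) and without animal 30 (0.0495).

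**Figure D1:**
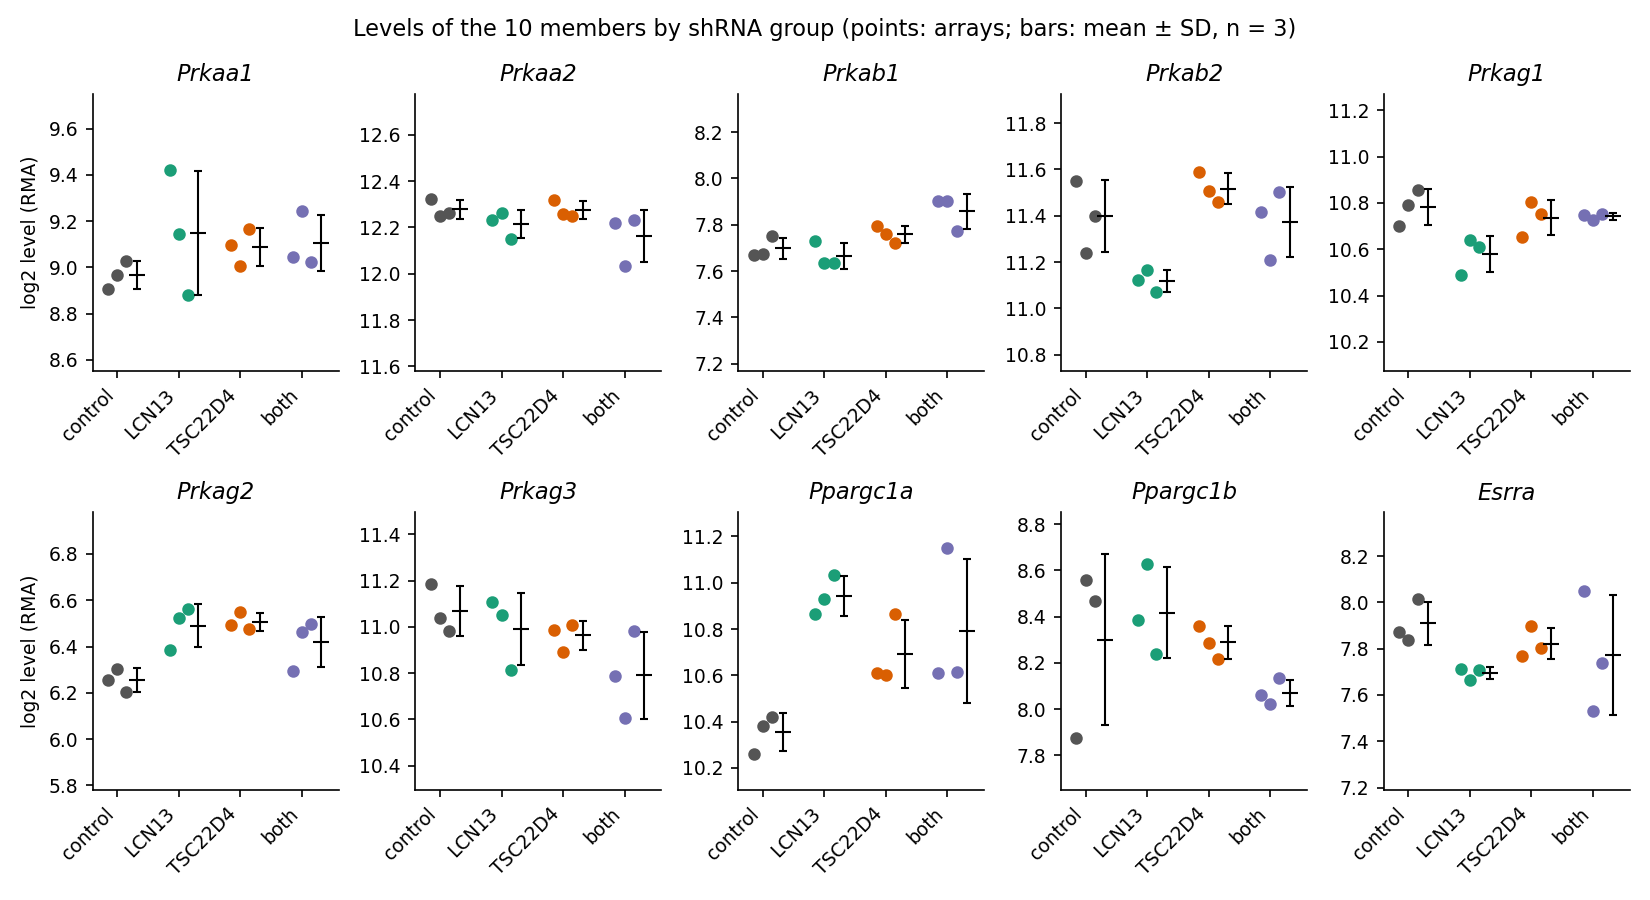
Log2 level of each of the 10 genes (vertical axis, own scale per panel) in every array, by shRNA group on the horizontal axis; points are arrays and bars are group means, with 3 arrays a group. Ppargc1a lies higher in all 9 arrays of the target groups than in the 3 control arrays, and Prkab2 and Prkag1 lie lowest in the LCN13 group.

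The regulatory γ subunits bind AMP, ADP and ATP. Prkag1 encodes γ1, found in most tissues, Prkag2 encodes γ2, known for mutations that cause cardiomyopathy with glycogen storage in humans, and Prkag3 encodes γ3, which is largely restricted to fast glycolytic muscle. Prkag1 (chromosome 15, bases 98812797 to 98831508) measured 10.70, 10.79 and 10.86 in control arrays, 10.49, 10.64 and 10.61 in LCN13 arrays, 10.65, 10.80 and 10.75 in TSC22D4 arrays, and 10.75, 10.72 and 10.75 in TSC22D4+LCN13 arrays. As with Prkab2, each LCN13 value lay below all values of the other groups. The LCN13 group differed from control by -0.20 (SE 0.053, 95% interval -0.32 to -0.08, adjusted p = 0.132). TSC22D4+LCN13 was above LCN13 by 0.16 (adjusted p = 0.118), and TSC22D4 was above it by 0.16 (adjusted p = 0.22). From low to high the order was LCN13, TSC22D4, TSC22D4+LCN13 and control, and the 3 groups above LCN13 overlapped with each other.

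Prkag2 (chromosome 5, bases 24862735 to 25106282) measured 6.26, 6.30 and 6.20 in control arrays, 6.38, 6.53 and 6.56 in LCN13 arrays, 6.49, 6.55 and 6.48 in TSC22D4 arrays, and 6.30, 6.46 and 6.50 in TSC22D4+LCN13 arrays. All values of both groups with a single target lay above all control values, and animal 29 of the TSC22D4+LCN13 group lay within the control range. The difference from control was 0.25 for TSC22D4 (SE 0.060, adjusted p = 0.164), 0.24 for LCN13 (SE 0.060, adjusted p = 0.126) and 0.16 for TSC22D4+LCN13 (SE 0.060, adjusted p = 0.158). With array weights the LCN13 difference passed (adjusted p = 0.0466), and with a tendon covariate it was 0.17 (adjusted p = 0.909). From low to high the order was control, TSC22D4+LCN13, LCN13 and TSC22D4, and neighbours in it overlapped. The interaction term, that is TSC22D4+LCN13 minus LCN13, less TSC22D4 minus control, was -0.32 (95% interval -0.51 to -0.13, adjusted p = 0.244).

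Prkag3 (chromosome 1, bases 74738922 to 74749471) lay lowest in the group with both viruses. It measured 11.19, 11.04 and 10.98 in control arrays, 11.11, 11.05 and 10.81 in LCN13 arrays, 10.99, 10.89 and 11.01 in TSC22D4 arrays, and 10.79, 10.61 and 10.98 in TSC22D4+LCN13 arrays. The values of TSC22D4+LCN13 came just below those of control without overlap, and overlapped with both other groups. The difference of TSC22D4+LCN13 from control was -0.28 (SE 0.103, 95% interval -0.51 to -0.05, adjusted p = 0.16). Animal 30 had the lowest level here, as for Prkaa2. The order from low to high was TSC22D4+LCN13, TSC22D4, LCN13 and control, and neighbours in it overlapped. The slow fibre score overlapped between all 4 groups, from -0.33 to 0.19 in control and from -0.32 to 0.20 in TSC22D4+LCN13 arrays.

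Ppargc1a (chromosome 5, bases 51454249 to 52115853) had the largest differences from control of the 10 genes. It measured 10.26, 10.38 and 10.42 in control arrays, 10.87, 10.93 and 11.04 in LCN13 arrays, 10.61, 10.60 and 10.86 in TSC22D4 arrays, and 10.61, 11.15 and 10.62 in TSC22D4+LCN13 arrays. All 9 arrays of the target groups lay above all 3 control arrays, a pattern held by 297 (1.28%) of the 23185 genes. The control arrays also stood apart in the interferon-induced genes Ifit1 and Irf7, and the part of this in the Ppargc1a values was not tested. Ifit1 was lower in the target groups by 5.28-fold (LCN13, adjusted p = 0.00047), 7.81-fold (TSC22D4, adjusted p = 0.000122) and 8.50-fold (TSC22D4+LCN13, adjusted p = 6.36e-05). Irf7 was lower by 5.98-fold (adjusted p = 0.00047), 6.27-fold (adjusted p = 0.000343) and 7.92-fold (adjusted p = 0.000147) in the same order. Within the 9, the LCN13 values lay above the TSC22D4 values, by a narrow gap, and animal 30 had the highest level of all.

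None of the differences of Ppargc1a passed the test. LCN13 arrays were 1.51-fold above control, a log2 difference of 0.59 (SE 0.136, 95% interval 0.29 to 0.89, adjusted p = 0.0932). For TSC22D4+LCN13 it was 0.44 (SE 0.136, 95% interval 0.13 to 0.74, adjusted p = 0.105), and for TSC22D4 it was 0.34 (SE 0.136, 95% interval 0.03 to 0.64, adjusted p = 0.481). These 3 differences share the control arrays. From low to high the order was control, TSC22D4, TSC22D4+LCN13 and LCN13, and no neighbours in it differed by the test. TSC22D4 against LCN13, which uses no control array, gave -0.25 (95% interval -0.56 to 0.05, adjusted p = 0.461), and the interaction was -0.49 (95% interval -0.92 to -0.06, adjusted p = 0.449).

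The call of Ppargc1a in LCN13 against control turned on the fit. It passed with the genes above the median level (adjusted p = 0.0418), with trend and robust options (0.0414), with array weights (0.0379) and without animal 30 (0.012), and it did not pass in the other 18 of 22 fits. Animal 30 is in neither compared group, so leaving it out changes the shared spread and the adjustment over all genes, not the difference. The SD of Ppargc1a was 0.31 in TSC22D4+LCN13, 0.08 in control and 0.09 in LCN13 arrays. With a tendon covariate, which moves with the LCN13 group, the difference was 0.46 (adjusted p = 0.82).

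**Figure D2:**
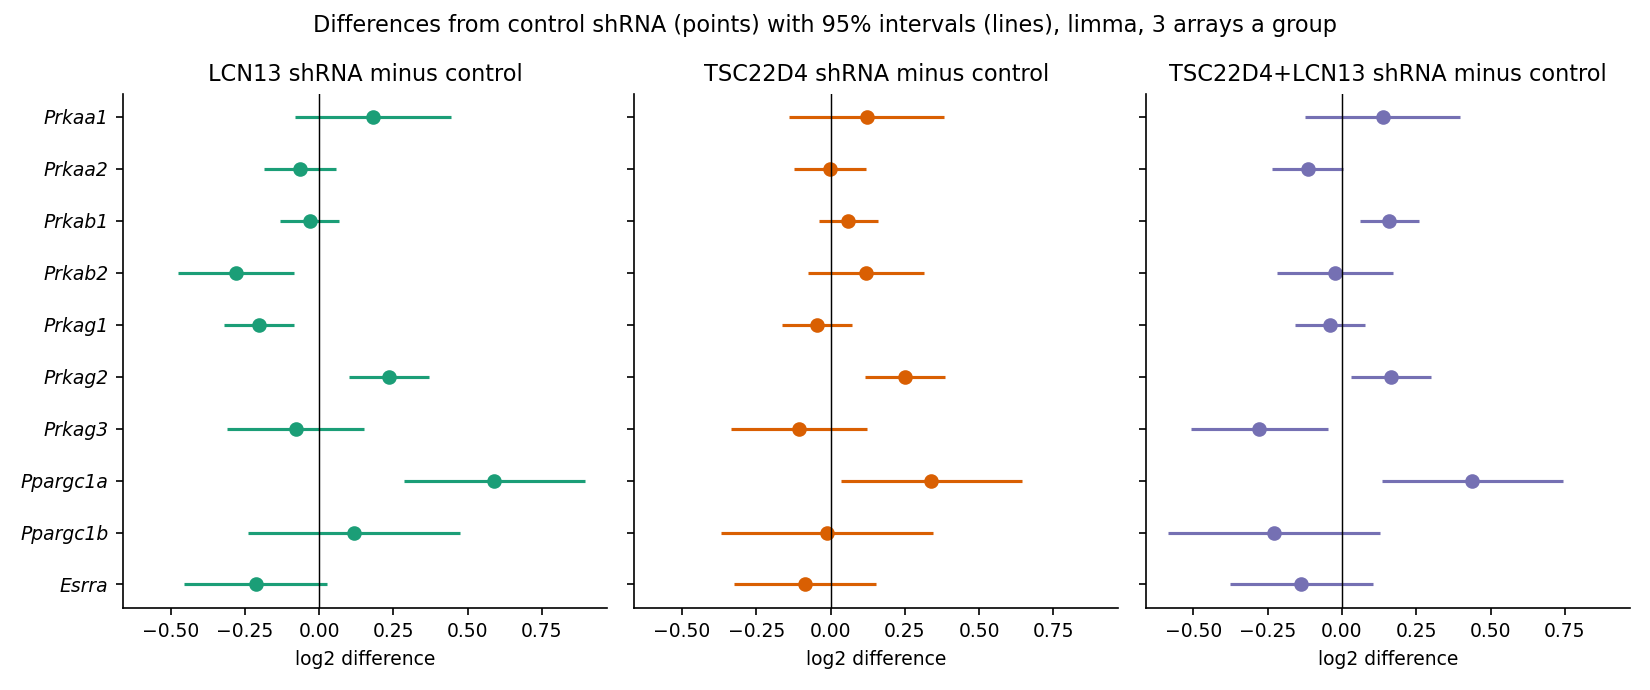
Log2 difference of each of the 10 genes from control shRNA (horizontal axis) in the LCN13, TSC22D4 and TSC22D4+LCN13 groups (panels); points are limma estimates and lines 95% intervals, with 3 arrays a group. The intervals of Ppargc1a and Prkag2 lie above 0 in all 3 panels, and those of Prkab2 and Prkag1 lie below 0 in the LCN13 panel. In the TSC22D4+LCN13 panel the interval of Prkab1 lies above 0 and that of Prkag3 below 0. None of these differences passed after adjustment over all genes.

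Ppargc1b encodes PGC-1β, a relative of PGC-1α with overlapping targets. Its gene lies on chromosome 18, bases 61291445 to 61400756. It measured 7.88, 8.56 and 8.47 in control arrays, 8.38, 8.63 and 8.24 in LCN13 arrays, 8.36, 8.29 and 8.22 in TSC22D4 arrays, and 8.06, 8.02 and 8.13 in TSC22D4+LCN13 arrays. Control animal 18 was the lowest of all 12, so the control range enclosed the whole TSC22D4+LCN13 range, which lay below both groups with a single target. The spread within groups was at the 95.8th percentile of all genes. TSC22D4+LCN13 differed from LCN13 by -0.35 (SE 0.160, 95% interval -0.70 to 0.01, adjusted p = 0.255) and from control by -0.23 (adjusted p = 0.478). The order from low to high was TSC22D4+LCN13, TSC22D4, control and LCN13, and no neighbours in it differed by the test. Where Ppargc1a lay above control in all 3 target groups, Ppargc1b differed from control by 0.12 in LCN13, -0.01 in TSC22D4 and -0.23 in TSC22D4+LCN13 arrays.

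Esrra (chromosome 19, bases 6910977 to 6922048) encodes the nuclear receptor ERRα, through which the PGC-1 coactivators reach many mitochondrial genes and which is itself known as one of their targets. It measured 7.87, 7.84 and 8.02 in control arrays, 7.71, 7.67 and 7.71 in LCN13 arrays, 7.77, 7.90 and 7.80 in TSC22D4 arrays, and 8.05, 7.53 and 7.74 in TSC22D4+LCN13 arrays. The LCN13 values lay below all control and all TSC22D4 values. The TSC22D4+LCN13 group held the highest value, of animal 29, and the lowest, of animal 30. LCN13 differed from control by -0.21 (SE 0.107, 95% interval -0.45 to 0.03, adjusted p = 0.467), while Ppargc1a lay above control in the same arrays. TSC22D4 and TSC22D4+LCN13 differed from control by -0.09 (adjusted p = 0.901) and -0.14 (adjusted p = 0.54). The order from low to high was LCN13, TSC22D4+LCN13, TSC22D4 and control, and neighbours in it overlapped.

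Counted over the 10 genes, the comparison of TSC22D4 with control has TSC22D4 virus in place of part of the control virus. None of the 10 passed, against 0.336% of all genes, and 2 had an unadjusted p below 0.05, against 9.26%. Groups did not overlap for 2 of 10, Ppargc1a and Prkag2, against 16.9% of all genes. For LCN13 against control, none passed, against 0.85%, and 4 had an unadjusted p below 0.05, against 12.4%. Groups did not overlap for 5 of 10 in that comparison, with Ppargc1a and Prkag2 above and Prkab2, Prkag1 and Esrra below control, against 18.8% of all genes.

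For TSC22D4+LCN13 against control, none of the 10 passed, against 4.34% of all genes. In this comparison 4 had an unadjusted p below 0.05, against 20.4%. The 4 genes without overlap, against 23.7% of all genes, were Ppargc1a and Prkab1 above and Prkaa2 and Prkag3 below control. With 10 genes, a count of 0 is close to each of these shares and is no result about the members.

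TSC22D4+LCN13 against a group with a single target has a further target virus in place of control virus. The loss of control virus and the gain of that target virus cannot be told apart here. LCN13 virus in place of control virus, beside TSC22D4 virus, gave no call among the 10, against 0% of all genes (0 of 23185 with limma, of which 2434 had an unadjusted p below 0.05). Of the members, 1 had an unadjusted p below 0.05, and Prkaa2 and Ppargc1b did not overlap, against 14.6% of genes. TSC22D4 virus in place of control virus, beside LCN13 virus, gave the 1 call of Prkab1, against 4.21% of all genes in either direction and 1.32% higher. There 3 members had an unadjusted p below 0.05, against 20.9%, and 4 did not overlap, against 22.6%: Prkab1, Prkab2 and Prkag1 above and Ppargc1b below LCN13.

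TSC22D4 against LCN13 gave no call among the 10, against 0.125% of all genes. Of the members, 2 had an unadjusted p below 0.05, against 14%, and 4 did not overlap, against 21.3%, namely Prkab2, Prkag1 and Esrra above and Ppargc1a below LCN13. No member passed for the interaction, against 0.125%, and 3 had an unadjusted p below 0.05, against 9.57%: Prkag1, Prkag2 and Ppargc1a. In the F test of any difference among the 4 groups no member passed, against 3.33% of all genes. There 5 members had an unadjusted p below 0.05, against 20.8% of all genes, and the smallest adjusted p were those of Prkab2 (0.0955), Prkab1 (0.0966) and Prkag2 (0.0988).

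The precision bounds what could be seen. The 95% interval of a difference between groups reached 0.10 to either side for Prkab1, which is 1.07-fold, and 0.36 for Ppargc1b, which is 1.28-fold. For Ppargc1a it reached 0.30, which is 1.23-fold. A missed threshold therefore does not show that these genes are alike in 2 groups.

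The 10 genes did not all vary together, since r of the pairs ran from -0.737 to 0.839. Of the 45 pairs, none had a Pearson correlation over the 12 arrays with a permutation p that passed adjustment over the 45 pairs, and 8 had an unadjusted p below 0.05. The permutations ignored the groups, so their p-values do not separate differences between groups from variation of animals within them. Prkaa2 and Prkag3, which were both low in animal 30, had the highest r, 0.839 (rho 0.657, adjusted permutation p = 0.0607 for r), and r was 0.506 without the 2 arrays farthest from the median of Prkaa2. Ppargc1a and Esrra had the lowest r, -0.737 (adjusted permutation p = 0.1), with rho -0.846 (adjusted permutation p = 0.0441). Without the 2 arrays farthest from the median of Ppargc1a, r was -0.573, and over deviations from the group means it was -0.612. Ppargc1a and Prkaa2 had an r of -0.733 (adjusted permutation p = 0.0751), and -0.421 without the 2 arrays farthest from the median of Prkaa2. Over deviations from the group means, r was 0.857 for Prkaa2 and Prkab2, 0.835 for Prkaa2 and Prkag3, and 0.711 for Prkab2 and Prkag3. For Ppargc1a it was -0.896 with Prkaa2, -0.761 with Prkab2 and -0.655 with Prkag3. The other pairs ran from -0.685 to 0.561. These values were not tested, and animal 30 had the highest Ppargc1a and the lowest Prkaa2 and Prkag3 level.

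**Figure D3:**
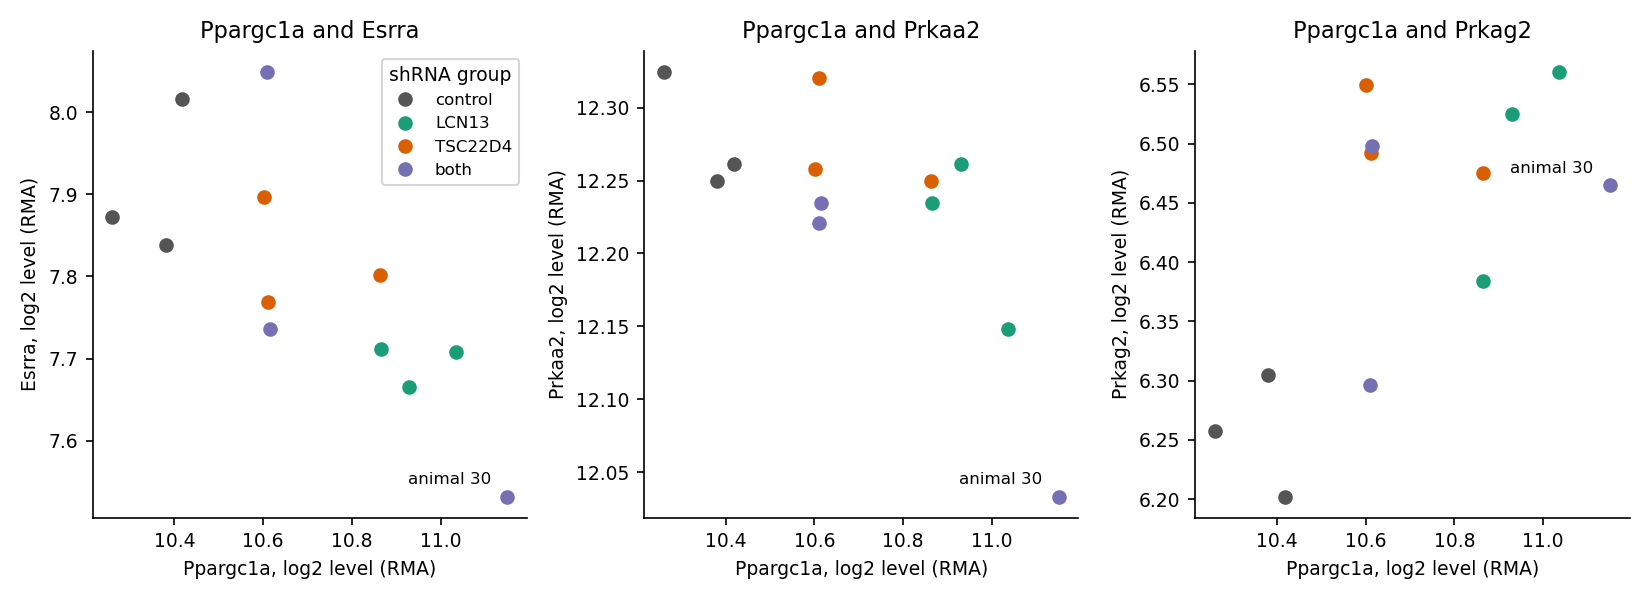
Log2 level of Ppargc1a (horizontal axis) against those of Esrra, Prkaa2 and Prkag2 (vertical axes, 1 panel each), with 1 point per array coloured by shRNA group. Points slope downwards for Esrra (r -0.737) and Prkaa2 (r -0.733), and animal 30 has the highest Ppargc1a and the lowest Esrra and Prkaa2 level.

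For Ppargc1a, Ppargc1b, Esrra, Prkaa2 and Prkag3, the genes with the most similar pattern over the 12 arrays were sought among 11055 genes above the median level, by Pearson r. For Ppargc1a these were Cd300lg (r 0.931), Vat1 (0.931) and Tcn2 (0.920). For Esrra they were Neurl4 (0.932), Tfip11 (0.914) and Zc3hc1 (0.885), and for Ppargc1b Huwe1 (0.864), Rasgrf2 (0.860) and Lrrc29 (0.860). For Prkaa2 they were Ulk2 (0.941), Nadk2 (0.940) and Cacul1 (0.929), and for Prkag3 Parp6 (0.933), Syngr1 (0.917) and Ccdc174 (0.916). They are the highest of 11055 values over the same arrays and are a description.

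Around these genes, 4 lists of the pathway were described by counts: 19 measured kinases and cofactors that activate AMPK, 33 substrates and effectors of AMPK, 47 partners and regulators of PGC-1, and 59 targets of PGC-1 and the ERR receptors. For TSC22D4 against control none of the genes of any list passed. The median difference of the PGC-1 and ERR targets was 0.06 there, with 46 of 59 above 0 and 9 with an unadjusted p below 0.05, all higher. Over all genes the median was -0.002, 48.3% were above 0 and 4.52% were higher at an unadjusted p below 0.05. All 9 slow fibre markers also lay above 0 there, with a median of 0.13, and none passed. Their part in the shift of the targets was not tested. Against control, 8 of the 9 lay above 0 in LCN13 and 6 in TSC22D4+LCN13 arrays. The Ppargc1a difference of TSC22D4 from control was 0.34 and did not pass, and any link between it and the targets was not tested.

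For LCN13 against control, 4 of 33 AMPK substrates and effectors passed, 3 of them lower, against 0.85% of all genes in either direction and 0.612% lower. Ulk1, the kinase that starts autophagy and is activated by AMPK, measured 9.89, 9.76 and 9.91 in control and 9.41, 9.47 and 9.29 in LCN13 arrays. Its log2 level fell by 0.46 (SE 0.065, adjusted p = 0.0136), with no overlap. Eef2k, the kinase that slows translation elongation, measured 9.89, 9.75 and 9.88 in control and 9.32, 9.58 and 9.52 in LCN13 arrays, and fell by 0.36 (SE 0.066, adjusted p = 0.0409). Slc2a4, the insulin-responsive glucose transporter GLUT4, fell by 0.26 (SE 0.045, adjusted p = 0.0358). The fatty acid transporter Cd36 rose by 0.30 (adjusted p = 0.0151). The median difference of the 33 was -0.09, against 0.001 for all genes. With only the genes above the median level tested, 3 substrates passed, and 274 of all tested genes did. That setting tests fewer genes and calls more than the 197 of the main fit, so its share over all genes is above 0.85%. With a tendon covariate or with the compared arrays alone none of the 33 passed. Without control animal 18 or 20 or LCN13 animal 21, 1 passed, and without LCN13 animal 23, TSC22D4 animal 25, 26 or 27 or TSC22D4+LCN13 animal 29, 2 passed. All genes past the threshold ran from 77 to 280 with 1 array left out.

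Among the PGC-1 lists in that comparison, 1 of 47 partners and 2 of 59 targets passed, against 0.85% of all genes. Carm1, an arginine methyltransferase that acts with PGC-1α, fell by 0.22 (SE 0.034, adjusted p = 0.0218). Slc2a4, which is in the target list too, fell, and the mitochondrial thioesterase Acot2 rose by 0.84 (SE 0.151, adjusted p = 0.0386). The median of the targets was -0.00, with 29 of 59 above 0, in the group where Ppargc1a lay highest. At an unadjusted p below 0.05, 6 of the 59 were higher and 11 lower, against 5.89% and 6.49% of all genes. No activating kinase passed. With a tendon covariate or the compared arrays alone, none of the partners and targets passed, and the same held without control animal 20. Carm1 also missed the threshold without LCN13 animal 21, and none of the targets passed without LCN13 animal 23, TSC22D4 animal 25, 26 or 27 or TSC22D4+LCN13 animal 29. With 1 array left out, the count over all genes ran from 77 to 280.

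For TSC22D4+LCN13 against control, 1 of 19 activating kinases and cofactors passed, against 4.34% of all genes, which is a share near the background. Stk11, which encodes LKB1, the main kinase upstream of AMPK in muscle, measured 10.87, 10.75 and 10.99 in control and 10.58, 10.58 and 10.59 in TSC22D4+LCN13 arrays, and fell by 0.29 (SE 0.063, adjusted p = 0.0368). In the substrate list 3 of 33 passed, all lower, against 2.62% of all genes lower: Eef2k fell by 0.42 (adjusted p = 0.0102), Ulk1 by 0.37 (adjusted p = 0.0169) and the class IIa deacetylase Hdac5 by 0.24 (adjusted p = 0.0276). The median difference of the list was -0.08. With only the genes above the median level tested, 4 substrates passed, and 1043 of all tested genes did. Since that setting tests fewer genes, its share over all genes in either direction is above 4.34%. With a tendon covariate or the compared arrays alone, none of the genes of both lists passed. Stk11 was also not past the threshold without control animal 18 or 20, LCN13 animal 23, TSC22D4 animal 26 or 27, or TSC22D4+LCN13 animal 29 or 32, and the substrates past it were 1 without control animal 18 or 20 and 5 without LCN13 animal 21 or 23 or TSC22D4+LCN13 animal 29. All genes past the threshold ran from 334 to 1106 with 1 array left out, the highest without LCN13 animal 21.

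In the same comparison 7 of 47 PGC-1 partners and regulators passed, all lower, against 2.62% of all genes that were lower, with a median difference of -0.11, against -0.005 for all genes. Fbxw7, a ubiquitin ligase subunit that marks PGC-1α for degradation, measured 7.48, 7.49 and 7.46 in control and 7.17, 7.04 and 7.07 in TSC22D4+LCN13 arrays. It fell by 0.38 (SE 0.048, adjusted p = 0.00438). The acetyltransferase Kat2b fell by 0.33 (adjusted p = 0.00983), the retinoid receptor Rxra by 0.33 (adjusted p = 0.0242), Carm1 by 0.21 (adjusted p = 0.0117) and the coactivator Ncoa1 by 0.14 (adjusted p = 0.0475). Hdac5 was also in this list. The count of partners was 0 with a tendon covariate, 1 with the compared arrays alone, 3 without control animal 18, 4 without animal 19 and 2 without animal 20. With 1 array left out, the count over all genes ran from 334 to 1106. With only the genes above the median level tested, 5 partners passed, and 1043 of all tested genes did. That setting tests fewer genes, so its share over all genes in either direction is above 4.34%. None of the 59 targets passed, and their median difference was 0.015. The 7th partner past the threshold, by adjusted p, is left unnamed by the rule for named genes.

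Between TSC22D4+LCN13 and LCN13, 4 of the 150 different genes in the lists passed, against 4.21% of all genes, so this count does not exceed the background. Mlycd, which breaks down malonyl-CoA, an inhibitor of fatty acid entry into mitochondria, was lower in TSC22D4+LCN13 by 0.37 (SE 0.057, adjusted p = 0.0114). It measured 9.06, 9.01 and 9.03 in LCN13, 8.67, 8.70 and 8.64 in TSC22D4+LCN13, and 8.85, 8.65 and 8.92 in control arrays. The control values of Mlycd lay below all LCN13 values and overlapped with those of TSC22D4+LCN13. Fbxw7 fell by 0.43 (SE 0.048, adjusted p = 0.00567). Among the 59 targets, citrate synthase (Cs), the first enzyme of the citric acid cycle, was higher by 0.26 (SE 0.059, adjusted p = 0.0434). Atp5o, a subunit of ATP synthase, was higher by 0.50 (SE 0.113, adjusted p = 0.0416). In control arrays Atp5o measured 7.13, 7.15 and 7.08, above all LCN13 values and within the range of TSC22D4+LCN13. Cs measured 12.14, 12.27 and 12.31 in LCN13 and 12.55, 12.37 and 12.57 in TSC22D4+LCN13 arrays, without overlap, and 12.31, 12.38 and 12.41 in control arrays, whose range overlapped that of TSC22D4+LCN13. The median difference of the targets was 0.04, with 40 of 59 above 0.

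The 4 calls were lost with the compared arrays alone. The targets past the threshold were 7 without animal 30 and 0 without control animal 20, LCN13 animal 21 or 22, TSC22D4 animal 25, 26 or 27, or TSC22D4+LCN13 animal 29 or 32, and 1 without control animal 19 or LCN13 animal 23. All genes past the threshold numbered 1320 without animal 30, against 977 in the main fit. They ran from 318 to 1320 with 1 array left out. No gene of the lists passed in TSC22D4+LCN13 against TSC22D4, in TSC22D4 against LCN13 or in the interaction, against 0%, 0.125% and 0.125% of all genes. In TSC22D4 against LCN13, 16 of the 59 targets were higher and 4 lower at an unadjusted p below 0.05, against 6.94% and 7.03% of all genes.

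**Figure D4:**
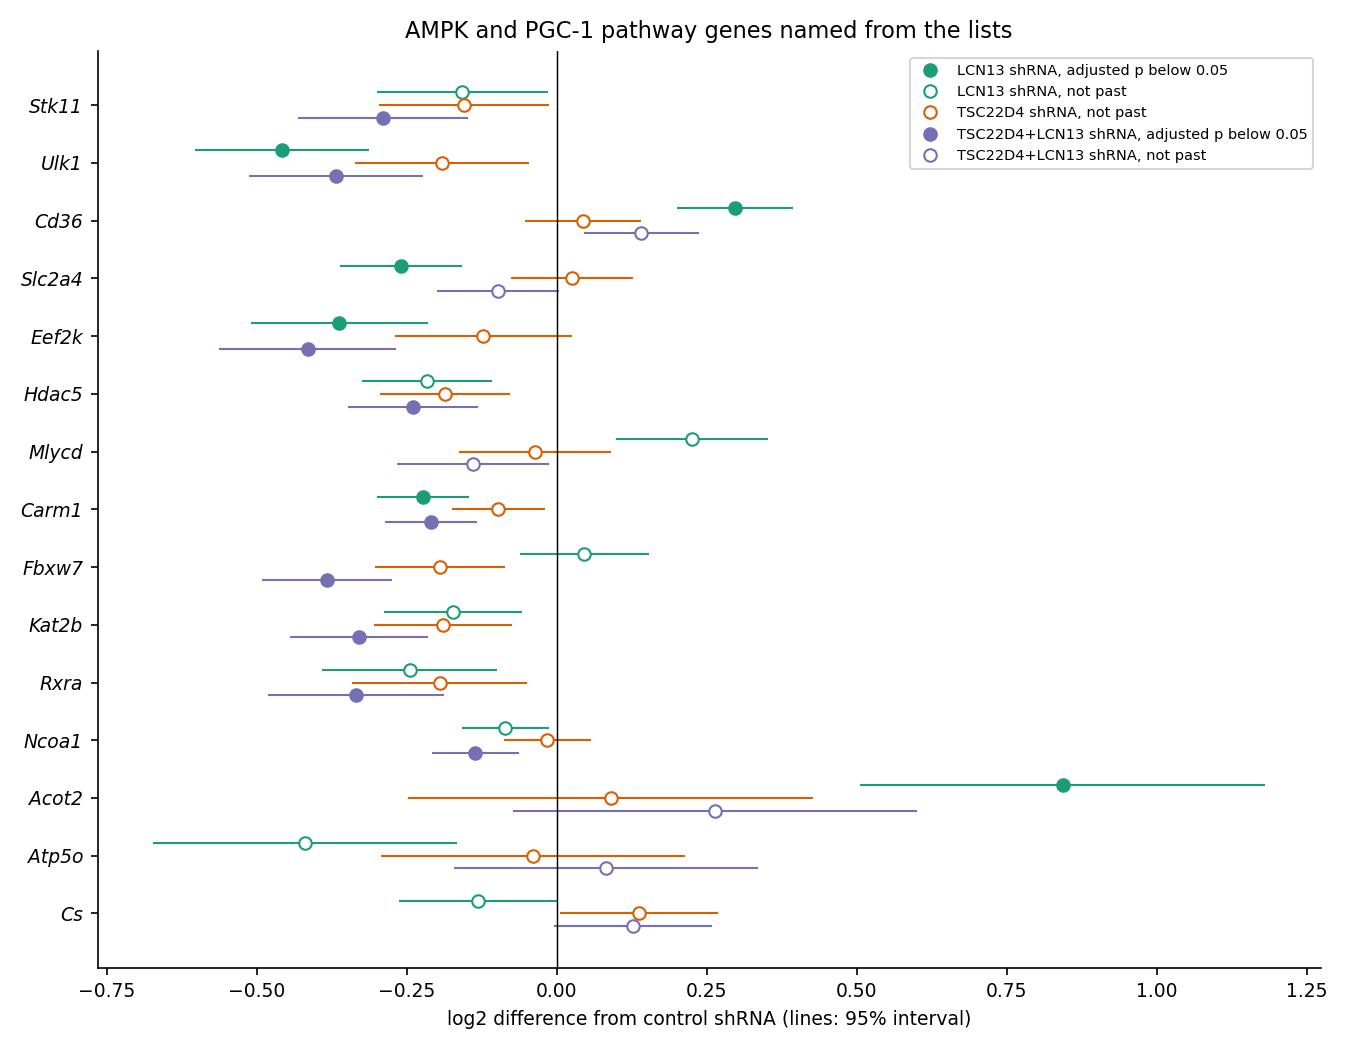
Log2 difference from control shRNA (horizontal axis) of pathway genes named from the 4 lists, in the 3 target groups; points are limma estimates, filled where the adjusted p is below 0.05, and lines are 95% intervals. Filled points are mostly to the left of 0, with Cd36 and Acot2 in the LCN13 group to the right.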

How the data were processed

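Muscle RNA of 12 mice was hybridised to 12 Affymetrix arrays of 1 colour. The deposited values are log2 levels that the authors obtained by RMA, per the submitters' processing notes. RMA removes background, gives all arrays the same distribution and combines the probes of each set, which hides any shift shared by most transcripts. Version, probe definitions and build: not given in the sources used here. Array medians were equal (5.452), and no filter on dim genes was applied.

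The table holds 25206 probe sets. The 23185 with a single symbol in the platform annotation all matched the RefSeq table (GRCm38.p6) by gene identifier. The full strain name is not reported here. Groups came from the labels, and the sources used here name no batch or scan date.

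All 12 arrays were fitted with 4 group means by limma 3.58.1 (lmFit, eBayes; R 4.3.3), with 8 residual and 1.69 prior degrees of freedom. The 7 differences were the 6 between pairs of groups and the interaction. Two-sided p-values were adjusted within each comparison over 23185 genes (Benjamini-Hochberg), and the threshold was 0.05. Correlations used 100000 permutations of the 12 arrays, made without regard to group. The steps were tested on simulated data.

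The members, the pathway and marker lists and the tests were chosen with earlier results of these data known. Named genes were all members, up to 6 genes of a list past the threshold in a comparison by adjusted p, and the 3 genes most correlated with each of 5 members. Alternatives were all probe sets, means per gene, genes above the median level, trend and robust options, quantile normalization, median centring, array weights, compared arrays alone, a tendon or slow fibre score as a covariate, and each array left out. Means per gene, quantile normalization and median centring could change almost nothing, since no gene had several probe sets and array distributions were nearly equal. Whether probes of related subunits cross-hybridise was not checked.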

Additional observations from a re-analysis of the deposited data

How the results depend on the processing

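No paired analysis was possible because the animal numbers differ between the groups and no label pairs animals. No change of a member reversed in an alternative, where a direction was taken as given only at an unadjusted p below 0.05. The members past the threshold in LCN13 against control went from 0 to 1 with the genes above the median level and with trend and robust options, and to 2 with array weights. In TSC22D4+LCN13 against LCN13 they went from 1 to 0 with the genes above the median level, trend and robust options, array weights, the slow fibre score and the compared arrays alone. In TSC22D4 against LCN13 they went from 0 to 1 with array weights and with the compared arrays alone, and in the F test from 0 to 1 with array weights. With 1 array left out, they ran from 0 to 1 in LCN13 against control, TSC22D4+LCN13 against control, TSC22D4+LCN13 against LCN13 and TSC22D4 against LCN13, and from 0 to 2 in the F test, with 2 when animal 30 was left out. The cause was not tested.

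All genes past the threshold in TSC22D4 against control numbered 78, and 25 to 177 over the alternatives. For LCN13 against control they numbered 197 (18 to 340), for TSC22D4+LCN13 against control 1007 (34 to 1106), for TSC22D4+LCN13 against TSC22D4 0 (0 to 2), and for TSC22D4+LCN13 against LCN13 977 (0 to 1320). For TSC22D4 against LCN13 they numbered 29 (0 to 235), for the interaction 29 (2 to 51) and for the F test 773 (282 to 1072). The lowest counts against control came with the tendon score as a covariate or the compared arrays alone.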

Other observations

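After the pattern of Ppargc1a had been seen, the mean of the 3 target groups was set against control (9 arrays against 3). This contrast was chosen after seeing the data and gives no independent support. Ppargc1a differed by 0.46 (SE 0.111, 95% interval 0.21 to 0.70, adjusted p = 0.0928) and Prkag2 by 0.22 (SE 0.049, 95% interval 0.11 to 0.33, adjusted p = 0.0712). Neither passed, against 1.4% of all genes. The other 8 members had an adjusted p of 0.377 or more, the smallest being that of Prkag1, with a difference of -0.10.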
